A study of Mus musculus with 7 samples.

Results

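The RNAs described here are 9 noncoding transcripts, Malat1, Neat1, Snhg1, Snhg5, Snhg8, Snhg12, Gas5, Meg3 and Kcnq1ot1, taken as the rows of the deposited table whose gene symbol is one of these names. All 9 were found among 40743 genes. RNA-seq was performed on retinal microglia, the resident macrophages of the retina, of adult mice on the C57BL/6J background carrying Irf8-/- and Cx3cr1GFP/+, a reporter allele that marks microglia with GFP. Of the 7 libraries, 3 were labelled Irf8 KO without laser (unlasered) and 4 Irf8 KO with laser (lasered), a model in which laser burns break the membrane under the retinal pigment epithelium and new choroidal vessels grow in. Each library came from on average 10000 cells sorted as CD45low CD11b+ Cx3cr1GFP/+ Ly6C- Ly6G-, pooled from 3 to 4 mice, so that p-values measure the spread between such pools. From lasered mice the central 70% of the retina was sorted, and laser and retinal region therefore cannot be told apart. Wild-type libraries were not analysed here.

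Totals ranged from 20427558 to 36022954 reads in unlasered and from 37133297 to 45919042 reads in lasered libraries. These totals did not overlap, so laser and depth cannot be told apart. Irf8, the targeted gene, was still read in every library labelled Irf8 KO, at 463 to 582 CPM (reads scaled to a common library total), and a count per gene does not show whether the deleted stretch was among those reads. Of 12 microglia markers, 0 were called in limma (4 at an unadjusted p under 0.05), 0 in edgeR and 1 in DESeq2, with a summed level of 29879 to 37610 CPM. Rod photoreceptor markers moved with the groups. Their sum was 2251, 20191 and 5780 CPM without laser and 1020, 449, 821 and 321 CPM with laser, and 14 of 15 were called lower in limma. The remaining one, Pde6a, had a mean of 69.1 CPM without and 14.2 CPM with laser (limma adjusted p = 0.0836), and edgeR and DESeq2 called all 15. Mitochondrially encoded mRNAs summed to 4280, 6329 and 5190 CPM without laser and to 8390, 8103, 8964 and 6178 CPM with laser, with 3 of 13 higher (mt-Co1, mt-Co3 and mt-Atp8), calls that were lost in 2, 6 and 7 of 14 alternatives. With both lists left out of the library totals, the log2 fold change of Gas5 was 0.79, and Malat1 was called lower (limma adjusted p = 0.0172). This step changed only the scaling and removed no Malat1 or Gas5 reads that came from rods. It cannot show whether rods contributed to these levels, which was not tested.

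Malat1 and Neat1 are nuclear RNAs transcribed from neighbouring genes: Malat1 lies in nuclear speckles, which hold splicing factors, and Neat1 is the scaffold of paraspeckles. Snhg1, Snhg5, Snhg8, Snhg12 and Gas5 are snoRNA host genes, whose introns are processed into small nucleolar RNAs that guide the chemical modification of ribosomal and spliceosomal RNA, while the spliced host RNA is often removed by nonsense-mediated decay as it is translated. Meg3 and Kcnq1ot1 are imprinted: Meg3 is made from the maternal allele, and Kcnq1ot1 from the paternal allele, antisense to Kcnq1, where it silences neighbouring genes.

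Among the 5 hosts, 26 snoRNA genes were annotated (10 in Gas5, 8 in Snhg1, 5 in Snhg12, 2 in Snhg5 and 1 in Snhg8; GENCODE M21, GRCm38). Snord80 in Gas5 and Snora16a in Snhg12 are each annotated by overlapping gene entries, and each entry is counted. On the RNA strand, 16 held TGATGA (the C box) starting within the first 15 bases and CTGA (the D box) within the last 15, as did 20.2% of the 1507 annotated snoRNA transcripts. A further 4 held ACA just before the last 3 bases, against 18% of all snoRNA transcripts, and 6 held neither. One snoRNA from each of 4 hosts is printed from GENCODE to show what the hosts release, with the boxes in capitals.
Snord50a, from Snhg5, chr9:88521529-88521600, minus strand: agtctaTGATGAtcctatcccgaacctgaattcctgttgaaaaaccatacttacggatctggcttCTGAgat
Snord47, from Gas5, chr1:161038082-161038158, plus strand: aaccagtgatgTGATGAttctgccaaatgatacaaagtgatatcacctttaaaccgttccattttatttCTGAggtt
Snord99, from Snhg12, chr4:132310691-132310764, plus strand: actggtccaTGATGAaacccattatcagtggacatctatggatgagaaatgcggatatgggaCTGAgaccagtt
Snora24, from Snhg8, chr3:123507937-123508066, minus strand: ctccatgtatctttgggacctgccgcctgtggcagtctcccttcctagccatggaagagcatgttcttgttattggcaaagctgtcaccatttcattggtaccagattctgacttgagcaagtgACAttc

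Of the 26 snoRNAs, 12 were listed jointly with their host and were not measured on their own. The other 14 were listed apart from their host in 13 rows, as the overlapping Snora16a genes share a row. No library held more than 26 reads in any of these rows (Snora24 in lasered 1). Those 12 lie in Snhg1, Snhg5 and Gas5, whose values are thus not separable from them. The snoRNAs of Snhg8 and Snhg12 were all listed in rows of their own.

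Many host genes start with a 5′ terminal oligopyrimidine tract, a C followed by a run of C or T, which places an mRNA's translation under nutrient control. The run counted here may begin with C or T, which is wider than that tract. The starts are printed from RefSeq (GRCm38), with 20 bases before and 40 bases from the first transcribed base and the C/T run from that base in capitals. A run of at least 5 stood at 4.44% of the 32851 RefSeq starts.
Snhg8, chr3:123508297-123508356, minus strand: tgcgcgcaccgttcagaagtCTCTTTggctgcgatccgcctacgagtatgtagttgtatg
Snhg12, chr4:132308658-132308717, plus strand: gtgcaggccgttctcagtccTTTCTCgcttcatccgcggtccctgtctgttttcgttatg
Gas5, first listed start, chr1:161034581-161034640, plus strand: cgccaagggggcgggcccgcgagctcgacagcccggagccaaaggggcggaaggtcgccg
Gas5, second listed start, chr1:161035146-161035205, plus strand: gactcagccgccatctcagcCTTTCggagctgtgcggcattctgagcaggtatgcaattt
Snhg1, chr19:8723467-8723526, plus strand: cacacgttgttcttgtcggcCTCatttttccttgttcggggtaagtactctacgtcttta
Snhg5, chr9:88522858-88522917, minus strand: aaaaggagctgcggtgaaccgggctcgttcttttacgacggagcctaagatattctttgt
The run was 6 bases in Snhg8 and Snhg12, 5 at the second start of Gas5 and 3 in Snhg1, and none began at the first start of Gas5 or at the listed start of Snhg5. In Snhg12 it began with T and in the others with C. Of other snoRNA hosts looked up, Rack1 had a run of 10 bases, and none began at the listed starts of Zfas1 and Rpsa. Whether any of these runs acts on translation was not tested.

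Malat1 was the only one of the 9 RNAs at a high level. It took 90.04% to 97.7% of their summed CPM in every library, and the 9 together took 0.104% to 0.284% of a library. Per kilobase of exons, Malat1 had a mean of 325 CPM per kb in unlasered libraries, followed by Gas5 (7.90), Snhg8 (4.38), Snhg5 (2.55), Snhg1 (1.49), Neat1 (0.807), Snhg12 (0.522), Kcnq1ot1 (0.0829) and Meg3 (0.0184 CPM per kb). In this order, neighbours did not overlap between libraries for Malat1 and Gas5 and for Kcnq1ot1 and Meg3. In lasered libraries the order of the means was the same, and only Snhg1, Neat1 and Snhg12 overlapped with a neighbour. For Snhg1, Snhg8 and Snhg12 the merged exons cover the whole gene, snoRNAs included. For Gas5 (3760 of 4118 bases) and Snhg5 (1730 of 1880 bases) they cover most of the gene, again with all annotated snoRNAs inside. The values per kb of these hosts, and their places in the order, thus depend on the annotation.

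**Figure D1:**
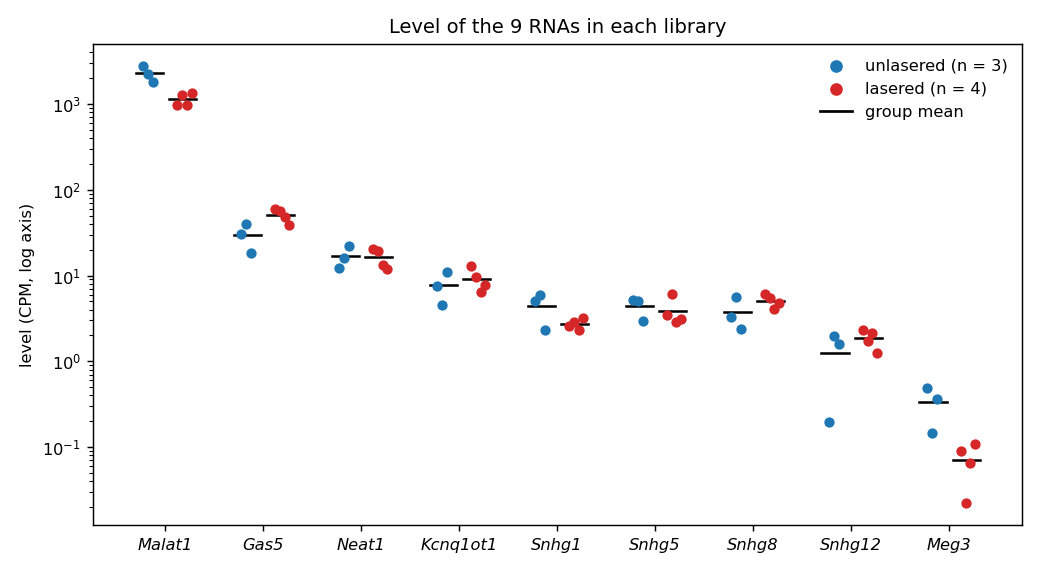
Level of each of the 9 RNAs in CPM on a log axis; points are the 3 unlasered and 4 lasered libraries and lines group means. Malat1 stands between 965 and 2778 CPM and the highest value of the other 8 is 58.9 CPM.

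The comparison of lasered with unlasered libraries asks which RNAs of Irf8-deficient microglia differ after laser injury. Of the 9 RNAs, 8 passed the filter of at least 1 CPM in at least 3 libraries, and 1, Malat1, was called (limma, Benjamini-Hochberg adjusted p under 0.05) and was lower, where 6.93% of all 17496 genes tested were called and 3.07% were called lower. The groups did not overlap for 1 of these 8, against 21.0% of all genes tested. The median log2 fold change was 0.11 over the 8 RNAs and -0.01 over all genes tested. In bulk RNA, fewer cells of a type and less RNA per cell cannot be told apart.

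Malat1 (ENSMUSG00000092341, chr19:5795690-5802672, minus strand, a single-exon lincRNA) had 2778, 2234 and 1799 CPM in unlasered libraries and 967, 1279, 965 and 1336 CPM in lasered libraries. Each lasered library was below each unlasered library, as for 10.7% of all genes tested. The mean was 2270.2 ± 490 CPM (SD, n = 3) and 1137 ± 198 CPM (n = 4), so that Malat1 fell by 0.99 on the log2(CPM + 1) scale (SE 0.18, limma adjusted p = 0.0176). By mean CPM it ranked 25 among all rows in unlasered and 77 in lasered libraries. Malat1 reads were not few, at 42692 to 76484 per library. Totals were higher in every lasered library, so laser and depth cannot be told apart for Malat1. The call was lost without lasered 1 (log2 fold change -0.92, adjusted p = 0.0510) and without lasered 3 (-0.92, adjusted p = 0.0525). Over all alternatives, the log2 fold change ranged from -1.15 to -0.83 and the adjusted p from 0.00011 to 0.0917.

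Malat1 ends without a regular poly(A) tail: the transcript is cut after a genomic A-rich tract, next to a tRNA-like small RNA called mascRNA. The cDNA was made with a kit primed by oligo(dT), and this stretch is printed from GENCODE to show the tract a primer could meet. The longest run of A is in capitals, and a run of at least 10 A occurred in 7.18% of the 141767 transcripts of the annotation.
Malat1, chr19:5795913-5796039, minus strand: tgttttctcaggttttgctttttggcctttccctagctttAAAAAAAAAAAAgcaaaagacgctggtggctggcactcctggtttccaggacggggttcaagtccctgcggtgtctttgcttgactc
The run of 12 began at base 6674 of 6983. In the longest annotated transcripts, runs of at least 10 A also lay in Kcnq1ot1 (longest 41), Meg3 (longest 16) and Snhg12 (longest 12). Where Malat1 or these RNAs were primed was not tested.

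Neat1 (ENSMUSG00000092274, chr19:5824708-5845478, minus strand) had 12.1, 16.0 and 22.2 CPM in unlasered libraries and 20.6, 19.4, 13.3 and 12.1 CPM in lasered libraries. Both groups spanned the same range. The log2 fold change was -0.03 (SE 0.26, 95% interval -0.61 to 0.55, adjusted p = 0.963), and its sign changed with the processing. Reads in 2 overlapping rows, Gm27505 and Gm28006, were not counted with Neat1, and with them the mean was 18.6 CPM in both groups. The log2 ratio of Malat1 to Neat1 (each as CPM + 1) within a library was 7.73, 7.04 and 6.28 in unlasered and 5.49, 5.97, 6.08 and 6.68 in lasered libraries. Its difference between groups was -0.96 with overlap (exact permutation test, two-sided p = 0.114).

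Among 13 tested proteins of paraspeckles and nuclear speckles, 1 was called, the splicing factor Srsf2, at 76.9 ± 7.87 CPM without and 53.2 ± 4.22 CPM with laser (log2 fold change -0.52, adjusted p = 0.0491). This call was lost in 10 of 14 alternatives, and the median of the list was -0.20. Of the 7 tested genes next to Malat1 and Neat1, 0 were called in limma (1 at an unadjusted p under 0.05), 0 in edgeR and 1 in DESeq2, with a median of 0.04.

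Gas5 (ENSMUSG00000053332, chr1:161034422-161038539, plus strand), which hosts box C/D snoRNAs and was found as a transcript that builds up in growth-arrested cells, had 30.7, 39.9 and 18.5 CPM in unlasered libraries and 58.9, 57.2, 47.8 and 38.5 CPM in lasered libraries. The groups overlapped only because lasered 4 was below unlasered 2. The mean was 29.7 ± 10.7 CPM (SD, n = 3) and 50.6 ± 9.42 CPM (n = 4). The log2 fold change of 0.80 (SE 0.26) had an unadjusted p of 0.0128 and did not pass the adjustment in limma (adjusted p = 0.104). With DESeq2 on the recovered reads, which called 13.2% of all genes and 6.73% as higher, the adjusted p was 0.0405, and over all alternatives it ranged from 0.0405 to 0.233. The log2 fold change ranged from 0.50, without unlasered 3, to 1.03, without unlasered 2.

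**Figure D2:**
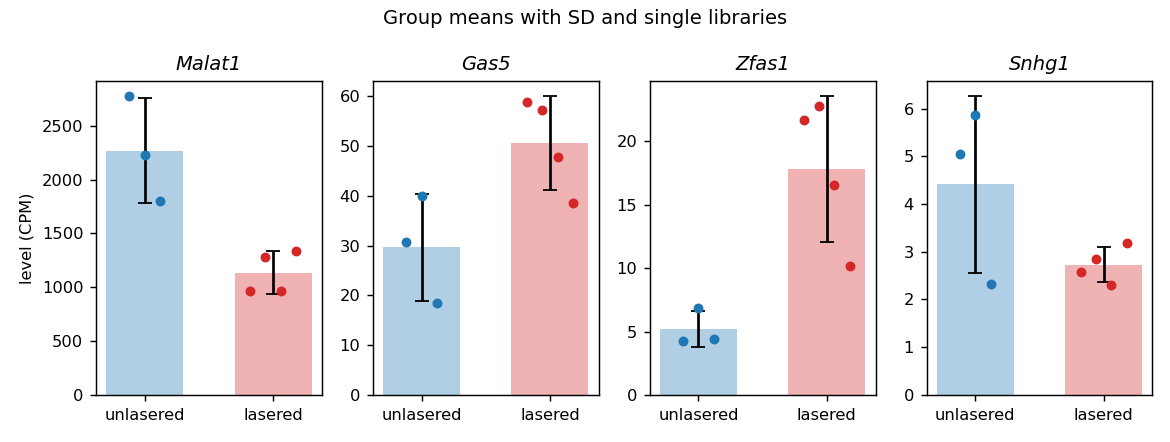
CPM of Malat1, Gas5, Zfas1 and Snhg1, each on a linear axis from 0; bars are group means, error bars SD, and points the 3 unlasered and 4 lasered libraries. Malat1 is lower and Zfas1 higher in each lasered library, Gas5 overlaps at 38.5 and 39.9 CPM, and 1 unlasered library of Snhg1, at 2.33 CPM, lies among the lasered ones.

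Snhg8 (ENSMUSG00000104960, chr3:123507552-123508404, minus strand), the host of Snora24, had 3.28, 5.55 and 2.39 CPM in unlasered libraries and 6.03, 5.48, 4.12 and 4.74 CPM in lasered libraries. Its groups overlapped through unlasered 2 (log2 fold change 0.41, SE 0.25, adjusted p = 0.385), and the log2 fold change was 0.19 without unlasered 3 and 0.67 without unlasered 2. Snhg5 (ENSMUSG00000097195, chr9:88521050-88522929, minus strand), the host of Snord50a, had 5.19, 5.11 and 2.94 CPM against 3.49, 6.06, 2.85 and 3.15 CPM. The log2 fold change was -0.16 (SE 0.27, adjusted p = 0.778), with the highest and the lowest library both in the lasered group. It lay between -0.37, without unlasered 3, and -0.049, without unlasered 1.

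Snhg1 (ENSMUSG00000108414, chr19:8723475-8726443, plus strand), which holds 8 snoRNA genes, had 5.04, 5.87 and 2.33 CPM in unlasered libraries and 2.58, 2.85, 2.31 and 3.18 CPM in lasered libraries. Unlasered 3 lay among the lasered libraries and the other unlasered libraries above them (log2 fold change -0.48, SE 0.27, adjusted p = 0.332). Without unlasered 3 the log2 fold change of Snhg1 was -0.79 (adjusted p = 0.0553), and without unlasered 2 it was -0.27. Snhg12 (ENSMUSG00000086290, chr4:132308623-132311024, plus strand) had 0.196, 1.96 and 1.61 CPM against 2.33, 1.74, 2.13 and 1.27 CPM. Unlasered 1 held only 4 reads (95% Poisson interval 1.09 to 10.2, counting error only). The log2 fold change of 0.44 (SE 0.32, adjusted p = 0.473) was 0.03 without that library.

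Within each library, Malat1 was set against each of the other 8 RNAs as the log2 ratio of CPM + 1. The ratio of Malat1 to Gas5 was 6.45, 5.77 and 6.53 in unlasered libraries and 4.02, 4.46, 4.31 and 5.08 in lasered libraries. Every lasered library was below every unlasered library, and the difference of the means was -1.79 (exact permutation test, p = 0.0571, adjusted p = 0.0914 over 8 ratios). That p is the smallest that 3 against 4 libraries can give. Groups did not overlap for 5 of the 8 ratios, all of which share the values of Malat1, itself without overlap. Meg3 is among the 5, but it was under 1 CPM in every library. With 1 added to each CPM, the ratio of Malat1 to Meg3 follows Malat1 and says little about Meg3. A ratio within a library shows unequal change, not which RNA changed.

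Among other snoRNA host genes, 6 of 20 tested were called, all higher after laser, where 3.86% of all genes were called higher, and the median was 0.05. Among the 8 tested noncoding hosts, 1 was called: Zfas1, the host of box C/D snoRNAs antisense to Znfx1. Zfas1 had 4.26, 6.83 and 4.44 CPM in unlasered libraries and 21.7, 22.8, 16.5 and 10.2 CPM in lasered libraries. The lasered libraries were all above the unlasered libraries, as for 10.4% of all genes tested (log2 fold change 1.57, SE 0.29, adjusted p = 0.0178), although the call was lost in 5 of 14 alternatives.

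The other calls were among 12 protein-coding hosts and included Rpsa, a ribosomal protein, Rack1, a scaffold on the ribosome, Eef2, a translation elongation factor, and Tpt1. Rpsa was at 30.4 ± 2.09 CPM without and 72.4 ± 7.11 CPM with laser (log2 fold change 1.22, adjusted p = 0.00403). Rack1 was at 99.7 ± 9.93 and 217 ± 25.8 CPM (log2 fold change 1.11, adjusted p = 0.00605). These genes have near-identical pseudogene copies, so their counts are uncertain. Of 12 nonsense-mediated decay factors (median -0.09), 0 were called in limma (1 at an unadjusted p under 0.05), 0 in edgeR and 1 in DESeq2. Of 12 proteins of snoRNA particles and snoRNA processing (median -0.16), 0 were called in limma (3 at an unadjusted p under 0.05), 0 in edgeR and 0 in DESeq2.

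**Figure D3:**
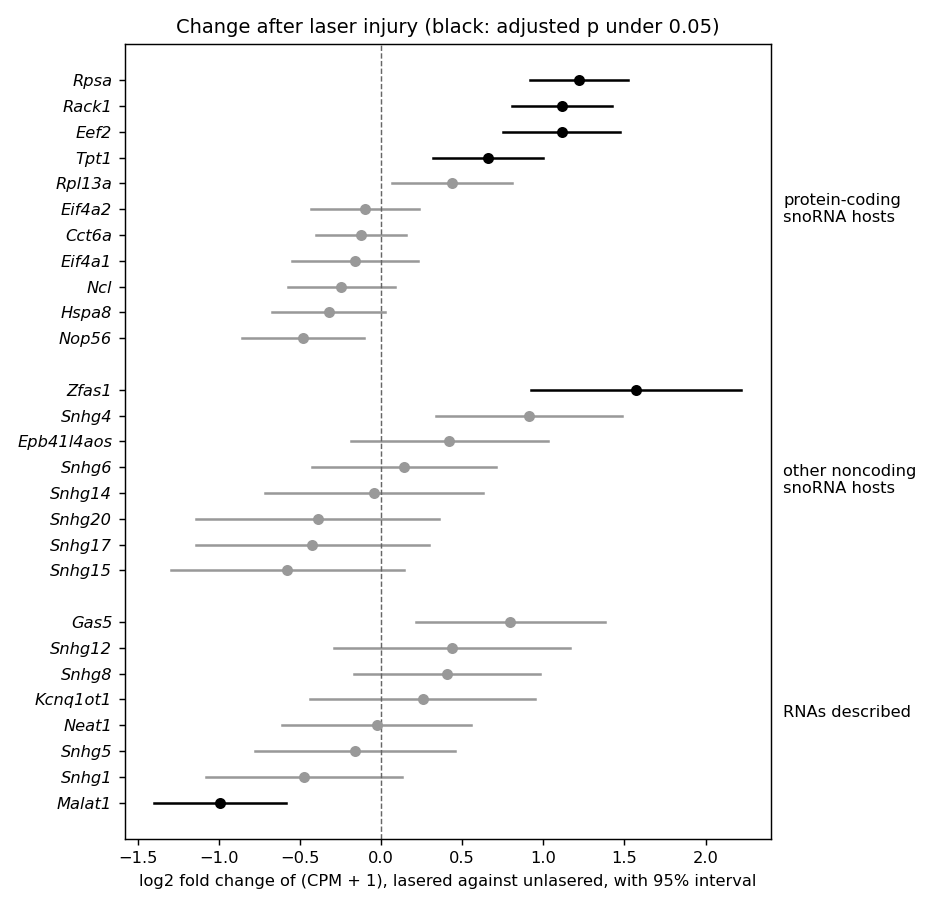
Log2 fold change of lasered over unlasered libraries on the log2(CPM + 1) scale, with 95% confidence intervals from limma, for the 8 RNAs tested, 8 other noncoding snoRNA hosts and 11 protein-coding snoRNA hosts; black marks an adjusted p under 0.05. Malat1 is the only called RNA of the 8 and lies below 0, and Zfas1 and 4 protein-coding hosts are called above 0.

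Over the 7 libraries, with each group mean subtracted, the 5 genes most like Gas5 among 10288 genes of at least 10 CPM were Rpl21 (Pearson r = 0.996), Rpl15 (0.993), Rps16-ps2 (0.993), Cox7a2 (0.992) and Ptma (0.989). Rpl21 and Rpl15 encode ribosomal proteins. The genes most like Malat1 were Aup1 (0.998), Arpc1a (0.997), Gm15590 (0.990), Gm7541 (0.989) and Ftl1 (0.989). These are descriptions over 7 points that share depth and library, chosen as the highest of many.

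**Figure D4:**
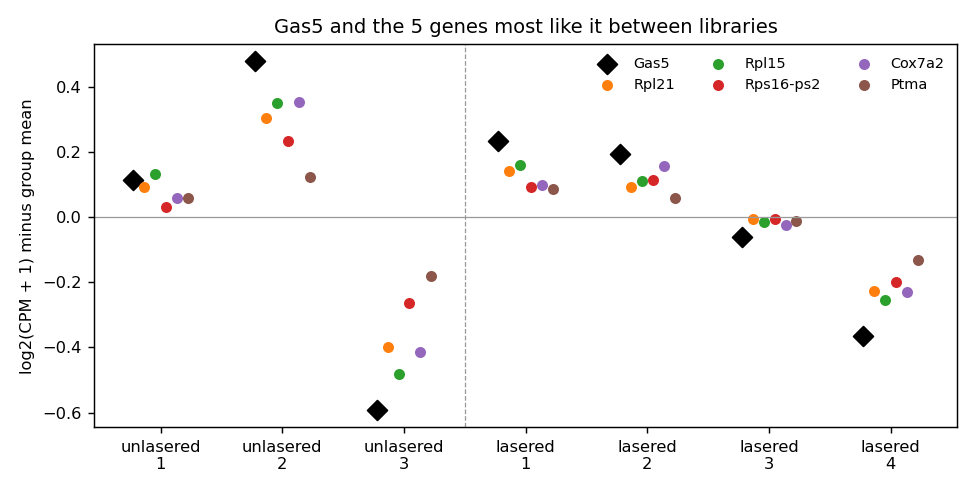
Log2(CPM + 1) minus the group mean for Gas5 (diamonds) and the 5 genes most like it, by library. In unlasered 2 all 6 genes lie above 0 and in unlasered 3 and lasered 4 all lie below 0.

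Kcnq1ot1 (ENSMUSG00000101609, chr7:143203458-143296549, minus strand) had 7.59, 4.53 and 11.05 CPM in unlasered libraries and 12.96, 9.64, 6.38 and 7.78 CPM in lasered libraries. The groups overlapped (log2 fold change 0.26, SE 0.31, adjusted p = 0.679). It lies inside Kcnq1 on the opposite strand, and because the strand setting of the counting is not given in the sources used here, reads of both genes cannot be told apart. Of the 9 tested imprinted genes around Kcnq1, the growth inhibitor Cdkn1c was lower after laser (7.08 against 2.25 CPM, log2 fold change -1.32, adjusted p = 0.0106). Tspan32, a tetraspanin, was higher (24.0 against 62.4 CPM, log2 fold change 1.33, adjusted p = 0.00605), and 7 were not called (median of all 9, -0.37).

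Meg3 (ENSMUSG00000021268, chr12:109541001-109571726, plus strand) was close to absent, with 10, 5 and 13 reads in unlasered and 4, 1, 3 and 4 reads in lasered libraries. This is 0.490, 0.146 and 0.361 CPM against 0.0906, 0.0223, 0.0653 and 0.108 CPM. Each lasered library was below each unlasered library, as for 10.7% of all genes tested, a share taken without Meg3. The nearest libraries were unlasered 2 (5 reads, 95% Poisson interval 0.0474 to 0.341 CPM) and lasered 4 (4 reads, 0.0294 to 0.276 CPM). Their intervals, of counting error only, overlapped. Meg3 did not pass the filter. Pooled reads were 28 against 12, a ratio in CPM of 0.226 (95% counting interval 0.105 to 0.459, which leaves out the spread between libraries). In the fit without a filter the log2 fold change was -0.31 (adjusted p = 0.202). Rian and Mirg, noncoding RNAs of the same imprinted region, had at most 12 reads in any library, and none of the 6 other genes of the region passed the filter.

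Summed over the 9 RNAs, levels were 2842, 2313 and 1861 CPM without laser and 1074, 1382, 1044 and 1407 CPM with laser, without overlap (exact permutation test, p = 0.0571). The other 8 RNAs without Malat1 summed to 64.6, 79.0 and 61.3 CPM against 107, 102, 79.0 and 70.8 CPM. This difference of 21.5 CPM had the opposite direction, with overlap (exact permutation test, p = 0.171).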

How the data were processed

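RNA was prepared with an ultra-low-input kit primed by oligo(dT) and Nextera XT, and per the methods and the submitters' processing notes the authors trimmed reads with cutadapt, removed duplicates with FastUniq, mapped with Bowtie2 and counted per gene with HTSeq. The deposited values are headed TPM but are CPM: in each library every value was a whole multiple of 1 read's worth (tolerance 6e-05 CPM). Whole reads were recovered from these steps. Genome build GRCm38 is named in the notes, and coordinates come from GENCODE M21 of that build.

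Group means were compared in limma 3.58.1 (R 4.3.3, statmod 1.5.0; trend, robust) on log2(CPM + 1), a scale that understates changes of low genes, for the 17496 genes that reached 1 CPM in 3 or more libraries, two-sided, Benjamini-Hochberg adjusted. The study's own tool, DESeq2 (1.42.0), and edgeR 4.0.16 were run on recovered reads as alternatives, beside a pseudocount of 0.1, no filter, a replicate block, median-of-ratios scaling, totals without rod and mitochondrial genes, and leaving out each library. Exact permutation tests covered 35 splits, with 0.0571 the smallest two-sided p. Other values came from Python 3.11.15 (scipy 1.17.1, pandas 2.3.3, numpy 2.4.6), and plots from matplotlib 3.10.9.

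Named genes are the 9 RNAs, up to 3 called genes by size of change and the defining genes of each list, and the 5 genes most like Malat1, Gas5 and Meg3. For Meg3 these were Slc13a3, Fiz1, Prmt9, Zbtb25 and Astn2 (r = 0.976 to 0.989, on 1 to 13 Meg3 reads). Eef2 and Tpt1 were named after their values were seen, and 1 protein-coding host is not reported here. The RNAs and lists were chosen with earlier results of these data known. Neat1 had no start in the RefSeq table. Same-numbered libraries did not deviate together (correlations -0.18, -0.13 and -0.02), so the numbers were not taken as pairs.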

Additional observations from a re-analysis of the deposited data

How the results depend on the processing

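Of the 9 RNAs, 1 was called in limma (Malat1). With a replicate block, whose numbers were not shown to pair the libraries, 0 were called (Malat1 adjusted p = 0.0917, log2 fold change -1.07). DESeq2 called 2 (Malat1 and Gas5), and leaving out one library gave 0 to 1, with 0 without lasered 1 or lasered 3. Over all genes, 1213 were called, against 385 without a filter, 3 with the replicate block, 2318 with DESeq2 and 264 to 1248 when one library was left out. Of 202 genes named in the lists, not all of which passed the filter, 35 were called. Rod markers made up 14 of these 35. The count was 14 without a filter, 0 with the replicate block and 12 to 29 when one library was left out. Neat1 changed sign with the replicate block (0.10), with median-of-ratios scaling (0.049) and when one library was left out (-0.23 to 0.18), and Kcnq1ot1 when one was left out (-0.038 to 0.52). The summed level of the 9 RNAs differed by -1112 CPM, by -1351 to -860 CPM when one library was left out, and by 21.5 CPM without Malat1, which by construction removes most of the sum. Snhg1, Snhg5, Snhg8 and Snhg12 were not called and did not change sign under the 14 alternatives, but their size moved by over 1.5 times when one library was left out: -0.79 to -0.27, -0.37 to -0.049, 0.19 to 0.67 and 0.03 to 0.68. Where a call was lost, the cause was not tested. Depth limits Meg3 and, in unlasered 1, Snhg12.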

Other observations

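Among other long noncoding RNAs, 2 of 12 tested were higher after laser, Gm26917 (log2 fold change 1.41, limma adjusted p = 0.0401) and Gm42418 (1.68, adjusted p = 0.0382), and the median was 0.38. Both rows commonly collect reads of ribosomal RNA, and the calls were lost in 7 and 8 of 14 alternatives.

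Markers of other retinal cells were read too. Of 10 tested inner retinal neuron markers, Syt1 and Pax6 were lower in limma (median -0.01), where edgeR called 1 and DESeq2 called 3. Of 6 Mueller glia and astrocyte markers, Dkk3 was lower and Gfap, which marks reactive glia, was higher in limma (median -0.26). Gfap was at 0 CPM in unlasered 1 and 2, and edgeR and DESeq2 each called 1 gene of this list. Of 5 endothelial and pericyte markers, Cspg4 was higher, at 2.25 ± 1.77 CPM without and 25.4 ± 8.06 CPM with laser (median -0.07). Of 3 retinal pigment epithelium markers, 0 were called in limma (1 at an unadjusted p under 0.05), 0 in edgeR and 0 in DESeq2 (median 0.35). Of 11 immediate early genes, Egr2 was higher and Nr4a1 lower in limma (median 0.03), where edgeR called 1 and DESeq2 called 2. The medians over all tested members of the rod, mitochondrial and microglia lists were -3.31, 0.57 and 0.10. The part of these cells in the values of the 9 RNAs was not tested.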
